A study of Mus musculus with 4 samples.

Results

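APC1 is one of 2 clusters that the study annotated as adipocyte progenitor cells in inguinal white adipose tissue (iWAT), the subcutaneous fat depot of the mouse groin. Its members were the nuclei that carry the label APC1 in the deposited annotation, 665 of 32552 nuclei (2.04%), and they were summed per mouse where a mouse gave at least 10 of them. Chromatin accessibility was measured by single-nucleus ATAC-seq, in which the transposase Tn5 inserts adapters into open chromatin and combinatorial barcodes mark the nucleus, so every value below counts open sites and not RNA. The nuclei came from 21 male C57BL/6 mice of 8 weeks, 3 mice in each of 7 groups, and the labels name no allele or transgene in any of them. The control mice stayed at 22 °C without treatment (day0RT). Mice of the cold groups were housed at 6.5 °C for 1, 3 or 7 days (day1C, day3C and day7C). Mice of the remaining groups received CL-316,243 (CL), an agonist selective for the β3-adrenergic receptor, at 1 mg/kg for 1, 3 or 7 days at room temperature (day1CL, day3CL and day7CL). Whole depots were used without separating adipocytes from stromal cells, and the cluster labels were made from the same counts, so differences between clusters are given as descriptions without a test.

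Adipocyte progenitors are mesenchymal stromal cells that lie around vessels and in the connective tissue of fat, lay down collagenous matrix and give rise to new adipocytes. They are recognised by the PDGF receptor PDGFRA and by surface antigens such as CD34 and Sca-1, the product of *Ly6a*. Single-cell studies of this depot divide them into an interstitial pool that bears DPP4 and more committed preadipocytes that bear ICAM1, and a group marked by CD142 has been described as a regulator of adipogenesis. Cold and β3-adrenergic agonists act on the adipocytes of iWAT, where they raise the number of thermogenic beige cells.

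In 20 of the 21 mice at least 10 APC1 nuclei were present, and the only mouse left out of the summed libraries, day1CL replicate 1, had 7, while the smallest libraries kept had 13. The 20 libraries held between 13 and 105 nuclei, with a median of 23, and between 11195 and 343092 counts, with a median of 54546.5. An APC1 nucleus had a median of 1380 counts, against 1182 over all nuclei, 1815 in APC2, 2561 in white adipocytes and 3087 in beige adipocytes. The median was 1653 counts in the 83 APC1 nuclei of day0RT, 1408 in the 287 of the cold groups and 1283 in the 295 of the CL groups. Of the 189598 peaks, 157755 had a count in an APC1 nucleus, and the matrix holds no value above 1. Below, a nucleus open at a peak is one with a count there. A nucleus without a count may be open and unsampled, so these shares are shares of detection that move with the depth of the cell type. The barcode sequence of 179 APC1 nuclei (26.9%) was also found in another mouse, against 26.8% of all nuclei.

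Among the mice, 3 stood apart from their groups in composition. Lymphocytes were 36.8% of the nuclei of day3C replicate 1, 11.9% of day1CL replicate 3 and 14.1% of day3CL replicate 2, against 58.2 to 90.8% in the other mice. These 3 mice also held the largest APC1 libraries, with 105, 82 and 69 nuclei, while their APC2 nuclei numbered 13, 0 and 2. All values include them unless a sentence says otherwise. Several APC1 shares, the genes called over the groups, and the genes and peaks at least 4-fold above adipocytes are also given without them.

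The 4 given markers were *Pdgfra*, *Ebf2*, *Cd34* and *Ly6a*. Pooled over mice, each had a higher level in APC1 than in any of the other 11 annotated cell types. The study used marker gene accessibility in these counts to annotate its clusters, so this describes the label and does not check it. From peaks within 2000 bases of gene starts alone, 3 of the 4 were highest in APC1. A gene's level is the number of counts in peaks over its body and the 2000 bases before its start, scaled to the library total as CPM, and levels are compared only within a gene. *Pdgfra*, the receptor of PDGF-AA and the general marker of fibroblastic progenitors, had 90.9 CPM in APC1, with 0, 88.3 and 174 as the lowest, median and highest of the 20 mice. APC2 had 75.3 CPM at *Pdgfra*, vascular endothelial cells (VECs) 34.5 and white adipocytes 28.9, so the APC2 level lay inside the spread of APC1. *Cd34*, a sialomucin of progenitors and endothelium, separated the progenitor clusters, with 98.3 CPM in APC1 (45, 91.3 and 173 over mice) and 4.33 CPM in APC2. The next level of *Cd34* was that of VECs, 46.1 CPM, while white adipocytes had 7.24. *Ebf2*, a transcription factor of brown and beige precursors, was as open in beige adipocytes (514 CPM; 392, 510 and 635 over mice) as in APC1 (525 CPM; 230, 536 and 810 over mice), and lower in white adipocytes (372) and in APC2 (104). *Ly6a* had 47.1 CPM in APC1 (0, 48.0 and 218 over mice), 27.8 in B cells and 6.92 in APC2, and its APC1 level rests on few counts per mouse.

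**Figure D1:**
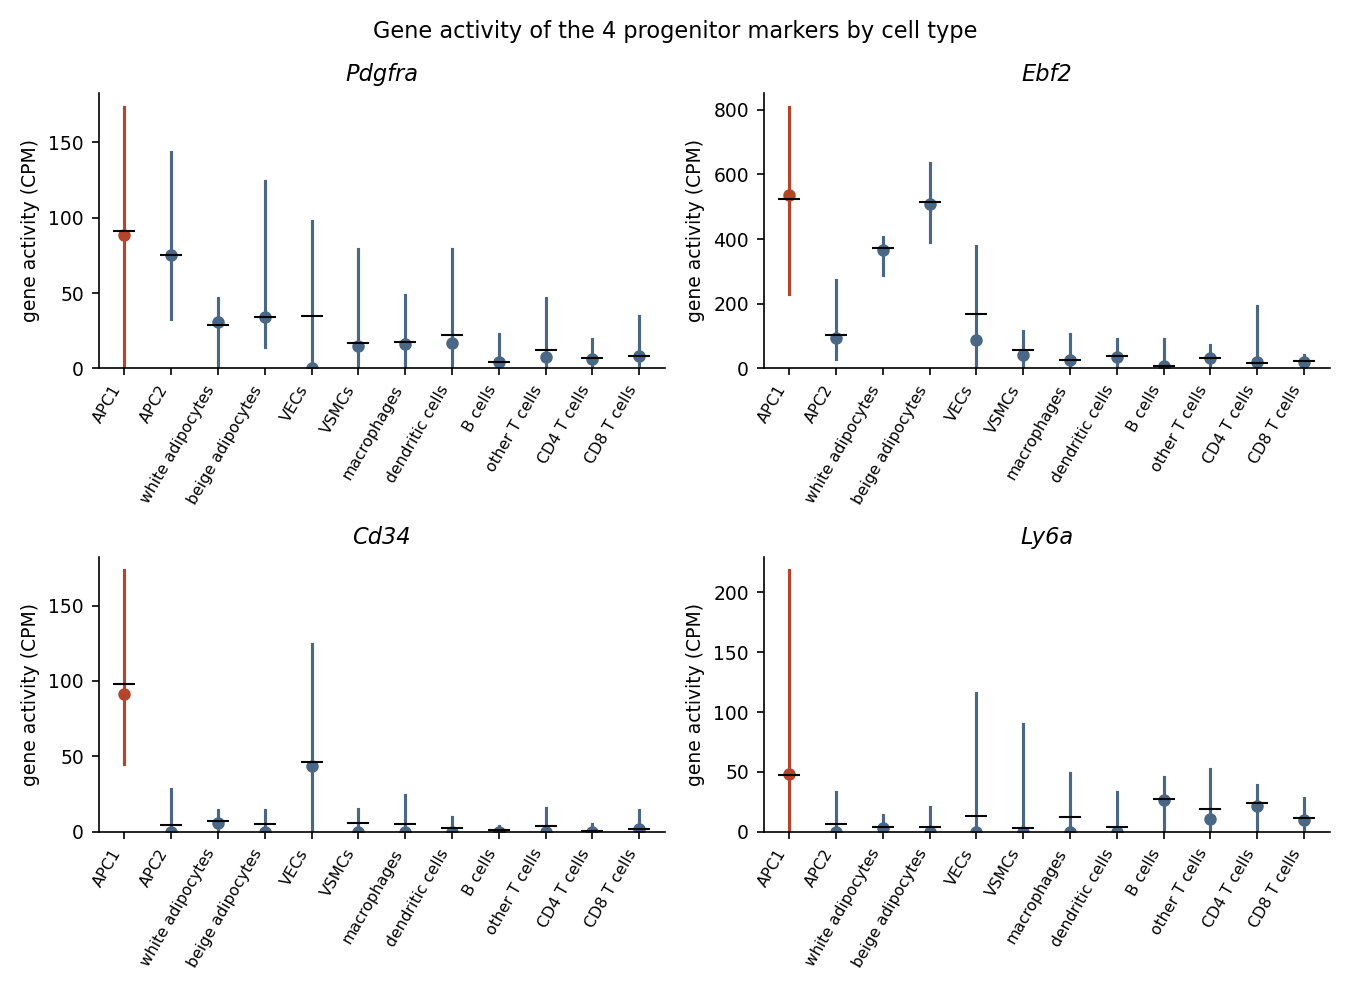
Levels of the 4 given markers in each of the 12 annotated cell types, in CPM, where the bar runs from the lowest to the highest mouse with at least 10 nuclei, the dot is the median and the black dash the pooled level. The pooled level of each marker is highest in APC1, but the range of *Pdgfra* overlaps that of APC2 and the range of *Ebf2* that of beige adipocytes.

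The sites behind these levels were specific peaks. The peak over the start of *Cd34* (chr1:194938656-194939104, mm10) was open in 57 of 665 APC1 nuclei (8.57%), in 0 of 562 APC2 nuclei, which allows a share of up to 0.534% at 3 counts, and in 0.286% of adipocytes, 3.70% of VECs and 0.0887% of immune nuclei. The peak at the start of *Pdgfra* (chr5:75152068-75152369) was open in 29 APC1 nuclei (4.36%) and 27 APC2 nuclei (4.80%), against 0.186% of adipocytes and 0.0380% of immune nuclei. In contrast, the most widely open intron peak of *Ebf2* (chr14:67356909-67358766) was open in 10.8% of APC1 nuclei and in 13.1% of adipocytes, with 2.14% of APC2 nuclei. A peak before *Ly6a* (chr15:74998859-74999317) was open in 31 APC1 nuclei (4.66%), 3 APC2 nuclei and 0.781% of immune nuclei. The promoters of *Cd34* and *Pdgfra*, the marker that the progenitor clusters do not share and the one they do, are printed as stretches of 250 bases from RefSeq (build GRCm38.p6, + strand, chr1:194938571-194938820 and chr5:75152001-75152250). The *Cd34* stretch reaches the gene start used here (chr1:194938819), while the *Pdgfra* stretch ends before the start used here (chr5:75152292). Capitals mark the bases that lie inside the peak, 165 for *Cd34* and 183 for *Pdgfra*.
Cd34 promoter: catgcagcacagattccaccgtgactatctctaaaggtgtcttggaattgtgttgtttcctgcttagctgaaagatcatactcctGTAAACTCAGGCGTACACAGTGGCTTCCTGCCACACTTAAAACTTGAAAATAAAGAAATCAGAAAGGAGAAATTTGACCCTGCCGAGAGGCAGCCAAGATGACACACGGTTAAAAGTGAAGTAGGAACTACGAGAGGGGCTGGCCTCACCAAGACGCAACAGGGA
Pdgfra promoter: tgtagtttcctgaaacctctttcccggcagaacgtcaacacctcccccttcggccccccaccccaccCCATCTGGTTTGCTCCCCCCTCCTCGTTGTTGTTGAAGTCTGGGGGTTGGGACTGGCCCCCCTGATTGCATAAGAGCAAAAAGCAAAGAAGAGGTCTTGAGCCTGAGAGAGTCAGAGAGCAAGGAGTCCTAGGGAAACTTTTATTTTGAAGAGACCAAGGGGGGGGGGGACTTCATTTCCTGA

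Marker lists of other cell types were used to ask what else the APC1 nuclei could hold. Over all 17173 protein-coding genes with a peak, APC1 had the highest pooled level of the 12 cell types at 1403 genes (8.17%). Without the 3 mice with few lymphocytes this number was 1492 (8.69%). Of 25 fibroblast and progenitor genes with a peak, 20 were highest in APC1, among them *Dcn*, *Lum*, *Col1a1*, *Col3a1*, *Scara5*, *Prrx1* and *Cd248*, and their levels summed to 4107 CPM in APC1, 2554 in APC2, 1730 in white adipocytes and 290 in B cells. None of the 15 adipocyte genes, 10 B cell, 10 T cell, 10 myeloid, 9 skeletal muscle or 5 epithelial genes was highest in APC1. The adipocyte list summed to 911 CPM in APC1 and 3695 in white adipocytes, with *Pparg* at 225 CPM in APC1. The B cell list summed to 345 CPM against 2463 in B cells, with *Bank1* at 120 CPM in APC1. The T cell list summed to 316 CPM against 3010 in CD8 T cells, with *Cd2* at 62.0 CPM in APC1. The myeloid list summed to 578 CPM against 1611 in macrophages, with *Cx3cr1* at 352 CPM in APC1 and between 256 and 550 CPM in every cell type, while the macrophage antigen *Adgre1* had 0 counts (at most 2.48 CPM at 3 counts).

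The stromal lists set APC1 apart from APC2. The 13 mural genes summed to 705 CPM in APC1 and 1378 in APC2: *Rgs5*, a pericyte marker, had 33.0 and 101 CPM, *Acta2*, smooth muscle actin, 33.9 and 99.5 CPM, and *Myh11*, smooth muscle myosin, 66.9 and 223 CPM. The mural gene highest in APC1 was the transcription factor *Tbx18* (85.1 CPM, against 76.1 in APC2). The 15 genes of lymph node reticular stroma summed to 429 CPM in APC1 and 954 in APC2, and *Ccl21a* and *Lepr* had 0 counts in APC1; *Pdpn*, podoplanin, had 152 and 149 CPM. Of 12 endothelial genes, *Tek*, the angiopoietin receptor, was the one highest in APC1 (124 CPM, 94.3 in APC2, 102 in VECs), while the list summed to 444 CPM in APC1 and 1873 in VECs. Of 5 mesothelial genes *Wt1* was highest in APC1, and of 4 Schwann cell genes *Erbb3*. The part that nuclei of other cell types play in any of these sums was not tested.

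**Figure D2:**
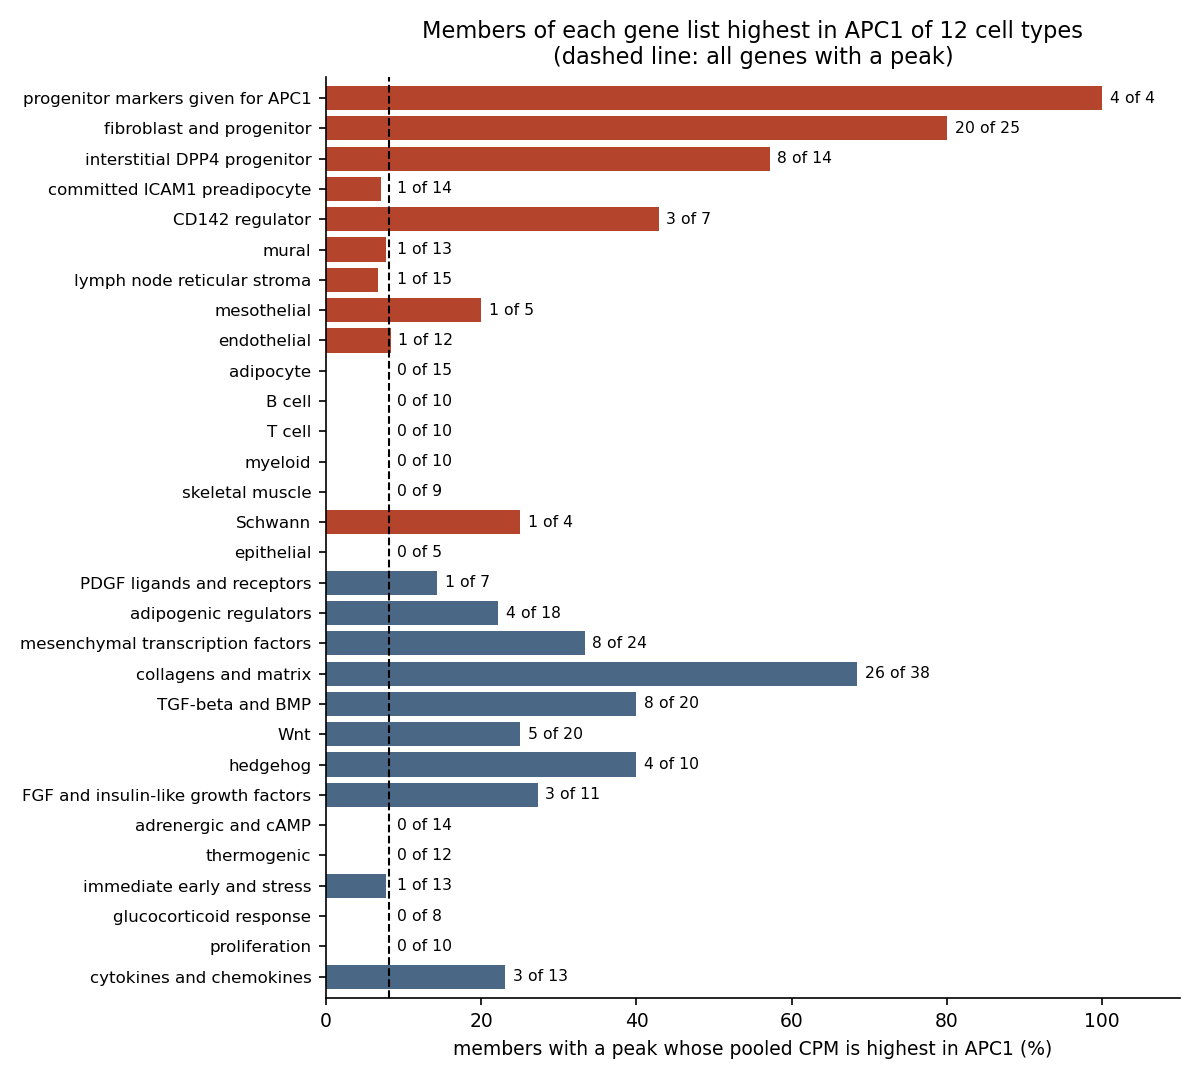
Percent of the members of each list whose pooled CPM is highest in APC1 of the 12 cell types, for the marker lists in red and the pathway lists in blue, with the numbers of genes beside the bars. The dashed line is the 8.17% of all 17173 genes, and the given markers (4 of 4), the fibroblast list (20 of 25) and the collagens and matrix list (26 of 38) reach farthest above it.

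Within the progenitor lists, APC1 was open at genes of the interstitial pool. Of 14 interstitial DPP4 progenitor genes, 8 were highest in APC1, and the list summed to 1899 CPM, against 707 in APC2 and 670 in white adipocytes. *Creb5*, a bZIP transcription factor, had 804 CPM in APC1 (411, 808 and 1185 over mice), 199 in APC2 and 206 in white adipocytes. *Sema3c*, a secreted semaphorin, had 179 CPM in APC1 and 17.3 in APC2, *Pi16* had 37.2 and 2.60, and *Wnt2* 25.6 and 8.65. *Dpp4* itself, a cell surface peptidase that T cells also carry, had 237 CPM in APC1, 41.5 in APC2 and 240 in CD8 T cells. Of 14 genes of committed ICAM1 preadipocytes, only the chemokine *Cxcl14* was highest in APC1 (16.5 CPM), and the list summed to 1980 CPM in APC1, 1818 in APC2 and 3091 in white adipocytes. *Icam1* had 45.4 CPM in APC1 and 96.9 in APC2, *Pparg* 225 and 132, and *Fabp4* 43.0 and 11.2. Of 7 CD142 regulator genes 3 were highest in APC1, *Fmo2* (108 CPM), *Gdf10* (24.8) and *Vit* (244), while *F3*, the gene of CD142, had 29.7 CPM in APC1 and 43.9 in white adipocytes.

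Against adipocytes, the summed white and beige nuclei of the same mouse, *Mmp14*, *Clec3b* and *Gli3* were more open in APC1 and *Cidec*, *Pck1* and *Mrap* in adipocytes. Of 7915 genes that passed a filter on low counts, 97 (1.23%) were at least 4-fold higher in APC1 and 204 (2.58%) at least 4-fold lower. Without the 3 mice with few lymphocytes the first number was 58. By the rule given under the processing, the genes named are those with the largest fold among genes with one direction in all 20 mice whose libraries on the higher side averaged 10 counts or more. *Mfap5* (18.5-fold) and *Pdpn* (10.3-fold), listed genes that were higher in all 20 mice, had fewer counts. *Mmp14*, the membrane-bound metalloproteinase that cleaves pericellular collagen, had 64.5, 217 and 401 CPM as lowest, median and highest in APC1 and 3.12, 12.5 and 20.1 in adipocytes, a 14.3-fold difference. *Clec3b*, the plasminogen-binding tetranectin, had 69.7, 157 and 360 CPM against 1.07, 9.01 and 15.3 (13.4-fold). *Gli3*, a transcription factor of hedgehog signalling, had 69.7, 205 and 516 CPM against 4.38, 14.7 and 27.2 (10.4-fold). For these 3 genes, as for all 10 that the rule names here, the lowest APC1 library was above the highest adipocyte library. The rule asks for 1 direction in all 20 mice and so favours such genes. The share of all 7915 genes that separate in this way was not computed. *Rhoj*, a small GTPase, and *Timp2*, an inhibitor of metalloproteinases, were both 9.38-fold higher. *Gfpt2*, an enzyme of the hexosamine pathway, was 9.17-fold higher, *Adgrd1*, an adhesion receptor, 7.91-fold, *Filip1* 7.01-fold, *Ddr2*, a receptor for fibrillar collagen, 6.53-fold and *Bicc1*, an RNA-binding protein, 5.90-fold.

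On the other side, *Cidec*, a lipid droplet protein, had a median of 0 CPM in APC1, with 64.5 in the highest mouse, and 140, 173 and 282 CPM in adipocytes, a difference of 19.0-fold with a prior count of 2. *Pck1*, which serves glyceroneogenesis, was 16.2-fold lower in APC1, *Mrap*, the accessory protein of the ACTH receptor, 15.2-fold and *Mmd* 15.0-fold. *Adrb3*, the receptor on which CL acts, had 0, 0 and 35.3 CPM in APC1 and 84.4, 154 and 213 CPM in adipocytes, 14.5-fold lower in APC1. Pooled, *Adrb3* had 7.44 CPM in APC1 and 6.92 in APC2, against 152 in white adipocytes and 145 in beige adipocytes. *Adrb1* had 25.6 CPM in APC1 and 78.3 in white adipocytes, so neither of these β-adrenergic receptor genes was more open in APC1.

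Against lymphoid and myeloid nuclei of the same mouse, the largest folds named by the same rule were those of *Ddr2* and *Bicc1*. Of 8782 genes, 670 (7.63%) were at least 4-fold higher in APC1 and 288 (3.28%) at least 4-fold lower. *Ddr2* had 152, 386 and 520 CPM in APC1 and 0, 5.77 and 10.4 in immune nuclei (48.4-fold), and *Bicc1* had 152, 563 and 1024 CPM against 3.02, 11.6 and 19.6 (46.9-fold). *Col6a3*, a chain of the microfibrillar collagen VI, was 40.8-fold higher, *Rhoj* 40.5-fold, *Col5a1*, a chain of fibrillar collagen V, 40.5-fold and *Htra3*, a serine protease, 35.7-fold. *Adamts2*, the procollagen N-proteinase, was 33.7-fold higher, *Timp3* 33.2-fold, *Gli3* 31.5-fold and the adhesion molecule *Kirrel* 31.2-fold. Among the genes lowest against immune nuclei were *Clec2i* (20.0-fold), the class II gene *H2-Eb2* (14.7-fold), *Glipr1* (12-fold) and *Pou2af1*, a coactivator of B cells (10.2-fold).

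Collagen and matrix genes were the pathway list in which APC1 most often had the highest level, 26 of 38, with a sum of 6063 CPM, against 4492 in APC2, 3242 in white adipocytes and 391 in B cells. The fibrillar collagen *Col1a2* had 44.6, 120 and 247 CPM over mice in APC1 and 4.97, 11.2 and 22.3 in adipocytes (6.14-fold). *Col1a1* was 4.09-fold higher, in 17 of 20 mice, and *Col3a1* 2.09-fold, in 19. The microfibril genes *Mfap5*, *Fbn1* and *Fbln2* were 18.5-fold, 5.08-fold and 7.28-fold higher than in adipocytes, and the proteoglycan *Dcn* 5.33-fold. *Mfap5* had 28.7, 100 and 195 CPM over mice in APC1 and 0, 1.79 and 7.45 in adipocytes, and 5.19 CPM in pooled APC2 nuclei. Basement membrane collagens differed less: *Col4a1* had 494 CPM in APC1, 504 in APC2 and 378 in white adipocytes, and *Col4a2* was 0.717-fold the adipocyte level. *Tnc* was 0.428-fold the adipocyte level, lower in 16 of 20 mice.

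Among the transcription factors, some of mesenchymal identity were highest in APC1, and adipogenic regulators lay on both sides of the adipocyte level. Of 24 mesenchymal factors, 8 were highest in APC1: *Prrx1*, *Twist1*, *Twist2*, *Osr1*, *Osr2*, *Tbx18*, *Foxp2* and *Creb5*. *Twist2* had 127 CPM in APC1, 65.7 in APC2 and 108 in white adipocytes, and *Osr1* 69.4, 28.5 and 15.7. Of 18 adipogenic regulators, *Zfp521*, *Ebf2*, *Klf4* and *Foxc2* were highest in APC1. *Zfp521*, an inhibitor of adipogenesis, had 320 CPM in APC1, 188 in APC2 and 131 in white adipocytes, and was 2.43-fold higher than in adipocytes in all 20 mice. Its counterpart *Zfp423* was 0.712-fold the adipocyte level, *Ebf1* 0.801-fold and *Ebf3* 0.602-fold. *Pparg*, the master regulator of adipogenesis, had 64.5, 210 and 340 CPM in APC1 and 456, 600 and 703 in adipocytes (0.358-fold), so the groups did not overlap, while it was 8.82-fold higher than in immune nuclei. *Prdm16*, a regulator of the thermogenic programme, was 0.248-fold the adipocyte level, and *Cebpa* 0.769-fold, lower in 14 of 20 mice. *Cebpd* was 1.86-fold the adipocyte level, higher in 19 mice, *Klf4* 3.10-fold, higher in all 20, and *Cebpb* 1.02-fold.

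Signalling genes followed by role. Of 20 genes of TGF-β and BMP signalling 8 were highest in APC1, among them the ligands *Tgfb3*, *Bmp2*, *Bmp4*, *Bmp6* and *Gdf10*, the co-receptor *Tgfbr3* and the receptor *Bmpr2*. *Tgfbr3* had 828 CPM in APC1, 655 in APC2 and 655 in white adipocytes, and *Bmp6* 138, 91.7 and 65.1. Of 20 Wnt genes 5 were highest, the ligand *Wnt2* and 4 secreted inhibitors, *Sfrp1* (40.5 CPM), *Sfrp2* (48.7), *Sfrp4* (27.3) and *Dkk2* (36.3). Of 10 hedgehog genes 4 were highest: the effector *Gli3*, the transducer *Smo* and the co-receptors *Boc* and *Gas1*. *Gas1* was 3.05-fold higher than in adipocytes and *Gli2* 0.968-fold. Of 7 PDGF genes only *Pdgfra* was highest, and *Pdgfrb*, the mural receptor, had 70.2 CPM in APC1 and 182 in APC2. Of 11 genes of FGF and insulin-like growth factors 3 were highest: *Fgf7*, a ligand of epithelial FGF receptors (126 CPM), and the binding proteins *Igfbp5* (129) and *Igfbp6* (82.6), the last 4.90-fold above adipocytes. Of 13 cytokines and chemokines 3 were highest: *Il6* (43.8 CPM), the eosinophil chemokine *Ccl11* (81.8) and *Cxcl14*, while *Il33* had 87.6 CPM in APC1 and 109 in APC2. Of 13 immediate early and stress genes *Fosl2* was highest. None of the 14 adrenergic, 12 thermogenic, 8 glucocorticoid response or 10 proliferation genes was highest in APC1. The genes over which these lists were drawn up were chosen with earlier results of the same data known, and a list with 1 gene of 12 highest in APC1 is close to the 8.17% of all genes.

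Single peaks showed how far APC1 differed from adipocytes at open sites. Of 3325 peaks that passed the filter, 18 (0.541%) were at least 4-fold more open in APC1 and 157 (4.72%) at least 4-fold less open. No peak reached the mean of 10 counts that the naming rule asks for, so the 18 were named after their values were seen. They are known by the nearest gene start, which need not be the gene they act on. The peak with the largest fold lay in an intron of *Il1rl2*, a receptor of the interleukin-1 family (chr1:40358701-40359225), and was open in 90 APC1 nuclei (13.5%, 95% exact Clopper-Pearson interval 11 to 16.4%), 10 APC2 nuclei (1.78%) and 28 adipocytes (0.400%), a 13.8-fold difference per mouse. A peak between genes, at -203486 bases from the start of *Hsf2* (chr10:57282398-57283400), was open in 95 APC1 nuclei (14.3%), 2 APC2 nuclei (0.356%) and 0.614% of adipocytes (12-fold, higher in 20 of 20 mice). An intron peak of *Gfpt2* (chr11:49811005-49811840) was open in 95 APC1 nuclei (14.3%) and 3 APC2 nuclei (0.534%). An intron peak of *Mmp14* (chr14:54443140-54444367) was shared, at 17.1% of APC1 nuclei, 18% of APC2 nuclei and 1.01% of adipocytes. In immune nuclei the *Il1rl2*, *Hsf2*, *Gfpt2* and *Mmp14* peaks were open in 0.0633%, 0.0971%, 0.414% and 0.410% of nuclei. Intervals cover counting error only. Both numbers depend on single libraries. Without day3C replicate 1, the largest, 744 peaks passed the filter, of which 2 were at least 4-fold more open and 33 at least 4-fold less open. Without day1CL replicate 2, 5464 passed it, with 18 and 357, and without the 3 mice with few lymphocytes 116 passed it and 0 were.

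The centres of 6 such peaks are printed to set sites that APC2 hardly opens beside the *Mmp14* site, which both progenitor clusters open. From the list of marker genes come an intron peak of *Creb5* (chr6:53337097-53337891), open in 74 APC1 nuclei (11.1%), 0 of 562 APC2 nuclei and 0.671% of adipocytes, and one of *Mfap5* (chr6:122508480-122508805), open in 34 APC1 nuclei (5.11%), 3 APC2 nuclei and 0.128% of adipocytes. Each line holds the middle 200 bases on the + strand of mm10. Capitals mark any of 13 short words of known factors, searched on both strands, of which no word contains another. The AP-1 word TGACTCA and the GATA word TGATAA stood together in the *Il1rl2* and *Gfpt2* centres, the *Mmp14* and *Mfap5* centres held E-box words (CAGCTG or CATCTG), the *Creb5* centre held the KLF word GGGTGTG and the NFI word TTGGCA, and the *Hsf2* centre held none. Over the 200-base centres of all 3325 peaks, the AP-1 word was found in 2.53%, the GATA word in 2.80%, an E-box word in 17.3%, the KLF word in 4.54% and the NFI word in 7.22%.
Il1rl2 intron, chr1:40358864-40359063: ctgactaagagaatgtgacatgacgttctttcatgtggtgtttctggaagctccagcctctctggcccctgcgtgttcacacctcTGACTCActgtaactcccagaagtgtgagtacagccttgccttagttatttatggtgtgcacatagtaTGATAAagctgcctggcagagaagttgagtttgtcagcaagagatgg
Gfpt2 intron, chr11:49811323-49811522: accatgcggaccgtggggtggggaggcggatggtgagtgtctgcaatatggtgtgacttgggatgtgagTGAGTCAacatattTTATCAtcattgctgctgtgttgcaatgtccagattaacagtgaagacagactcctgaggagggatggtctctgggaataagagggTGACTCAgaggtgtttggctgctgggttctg
Hsf2 upstream, chr10:57282800-57282999: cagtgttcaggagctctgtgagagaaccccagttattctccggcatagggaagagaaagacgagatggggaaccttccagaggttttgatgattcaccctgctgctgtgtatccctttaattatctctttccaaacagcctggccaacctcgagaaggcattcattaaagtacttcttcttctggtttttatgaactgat
Mmp14 intron, chr14:54443654-54443853: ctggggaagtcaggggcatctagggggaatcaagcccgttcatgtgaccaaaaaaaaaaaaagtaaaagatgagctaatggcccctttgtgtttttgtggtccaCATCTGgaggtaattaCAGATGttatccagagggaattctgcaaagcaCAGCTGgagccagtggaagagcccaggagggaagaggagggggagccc
Creb5 intron, chr6:53337395-53337594: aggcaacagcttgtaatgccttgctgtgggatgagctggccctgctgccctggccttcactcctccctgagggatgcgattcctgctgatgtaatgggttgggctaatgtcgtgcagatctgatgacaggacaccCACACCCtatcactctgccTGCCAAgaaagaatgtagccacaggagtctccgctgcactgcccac
Mfap5 intron, chr6:122508543-122508742: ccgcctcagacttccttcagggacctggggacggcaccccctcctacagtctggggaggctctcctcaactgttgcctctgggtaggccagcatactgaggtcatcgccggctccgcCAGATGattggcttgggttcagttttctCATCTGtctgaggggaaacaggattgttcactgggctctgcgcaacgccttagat

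**Figure D3:**
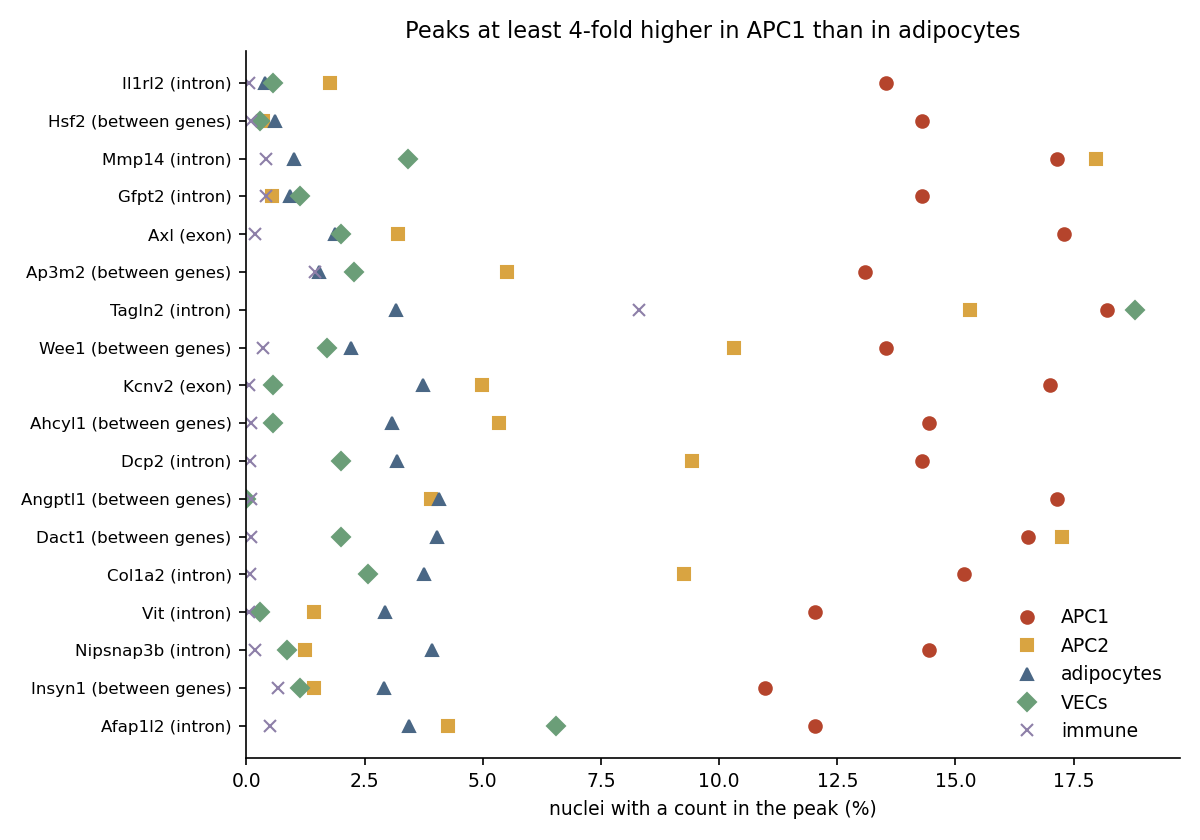
Percent of nuclei with a count in each of the 18 peaks at least 4-fold more open in APC1 than in adipocytes, for APC1, APC2, adipocytes, VECs and immune nuclei. APC2 matches APC1 at the *Mmp14* and *Dact1* peaks (17.1 and 16.5% of APC1 nuclei) and lies under 2% at the *Il1rl2*, *Hsf2*, *Gfpt2*, *Vit*, *Nipsnap3b* and *Insyn1* peaks.

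The other peaks of the 18 gave a similar range in APC1, from 11% of nuclei near *Insyn1* to 18.2% near *Tagln2*. APC2 nuclei were as open at a peak near *Dact1* (17.3%, 16.5% in APC1) and nearly so near *Tagln2* (15.3%), where VECs stood at 18.8%. At peaks in introns of *Vit* and *Nipsnap3b*, 1.42% and 1.25% of APC2 nuclei were open against 12% and 14.4% of APC1 nuclei. A peak in an intron of *Col1a2* was open in 15.2% of APC1 nuclei, 9.25% of APC2 nuclei and 3.76% of adipocytes, and was higher in 20 of 20 mice. The peak open in the largest share of APC1 nuclei was shared with APC2, adipocytes and VECs: it lay before *Klf9*, a glucocorticoid-induced factor (chr19:23133947-23136817), and was open in 28.7% of APC1 nuclei, 31.5% of APC2 nuclei, 32.5% of adipocytes, 24.2% of VECs and 4.35% of immune nuclei.

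The 18 peaks lay mostly away from gene starts. Within 2000 bases of a start were 2 of the 18 (11.1%) and 14.6% of the 157 peaks more open in adipocytes, against 70.9% of all 3325 peaks tested. The median GC content was 48.8%, 49.8% and 58.1%, so base composition differed from the background in the same way on both sides. In the middle 500 bases, the GATA word was found in 6 of the 18 (33.3%, exact interval 13.3 to 59.0%), in 8.92% of the adipocyte peaks and in 5.86% of all, and the AP-1 word in 4 (22.2%, 6.41 to 47.6%), 11.5% and 6.20%. The NFI word stood at 38.9%, 36.3% and 19.1%, the EBF word CCCNNGGGA at 22.2%, 17.8% and 15.8%, the TEAD word ACATTCC at 16.7%, 8.28% and 4.93% and the RUNX word TGTGGTT at 16.7%, 9.55% and 5.14%. The nuclear receptor word AAAGGTCA was in 0 of the 18, 4.46% and 1.53%, and the ETS word CCGGAAG in 5.56%, 3.18% and 18.8%. With 18 peaks these intervals are wide, and among the 55 peaks at least 2-fold more open in APC1 the GATA and the AP-1 word each stood at 14.5%. A word is a match of letters and no evidence of binding.

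By accessibility over all 17173 genes, the correlations of APC1 were highest with APC2 and VECs. The Pearson correlation of log2(CPM + 1) between pooled nuclei, each thinned to 521046 counts, was 0.852 with APC2, 0.842 with VECs, 0.812 with white adipocytes, 0.798 with beige adipocytes and 0.785 with vascular smooth muscle cells. Macrophages followed at 0.747 and dendritic cells at 0.722, and the lymphocytes lay between 0.671 (B cells) and 0.717 (other T cells). Over peaks in place of genes, APC2 (0.547) and VECs (0.523) again came first, but dendritic cells were lowest (0.327) and macrophages (0.354) lay below B cells (0.363). No spread over mice was computed for the difference between the correlations with APC2 and VECs. The points share libraries, depth and gene length, so these values are a description across genes, which are not independent replicates.

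The next question was whether cold or CL changed the share of APC1 among the nuclei. It was 1.70% ± 0.700 (SD, n = 3 mice) in day0RT, 1.46% ± 0.917 in day1C, 3.16% ± 3.13 in day3C, 1.45% ± 0.602 in day7C, 3.15% ± 3.70 in day1CL, 2.86% ± 2.39 in day3CL and 1.30% ± 0.389 in day7CL. The 3 high means each contained one of the mice with few lymphocytes, at 6.76% in day3C replicate 1, 7.38% in day1CL replicate 3 and 5.56% in day3CL replicate 2, while the other 18 mice lay between 0.505 and 2.51%. None of the 6 groups differed from day0RT by more than the spread between mice, with edgeR adjusted p of at least 0.758 and log2 fold changes between -0.38 and 0.89. Pooled over days, cold (2.02% ± 1.86, n = 9), CL (2.44% ± 2.37, n = 9) and day0RT (1.70% ± 0.700, n = 3) overlapped, with exact two-sided permutation p of 0.809 for cold and 0.814 for CL against day0RT and 0.762 for CL against cold (all 0.814 adjusted over the 3).

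Counted among nuclei other than immune cells, APC1 made up 9.84% ± 1.80 (n = 3) in day0RT, with the mice at 8.18, 9.60 and 11.7%, and 6.73% ± 2.40 (n = 9) under cold, with mice between 3.52 and 11.4%. The exact permutation p was 0.0682 (0.205 adjusted over the 3 comparisons, two-sided). Without the 3 mice with few lymphocytes, a choice made after seeing the data, the cold mean was 6.15% ± 1.76 (n = 8) and the exact permutation p 0.0121 (0.0364 adjusted). The share under CL was 7.90% ± 4.13 (n = 9), between 3.10% and 16.0% over mice, and its days lay on both sides of day0RT. It was 12.8% ± 2.95 in day1CL (10.2 to 16.0%), 6.01% ± 1.08 in day3CL (4.76 to 6.65%) and 4.85% ± 1.55 in day7CL (3.10 to 6.02%, n = 3 mice each), so that all day3CL and day7CL mice lay below the day0RT mice. So did all mice of day1C (4.58 to 7.19%) and day7C (3.52 to 7.64%), but not those of day3C (5.62 to 11.4%). This share moves also with the number of adipocyte nuclei recovered, which ranged from 2.09 to 75.1% of a mouse's nuclei, so fewer APC1 nuclei and more adipocyte nuclei cannot be told apart. A test by edgeR on the same nuclei gave its lowest adjusted p for day7CL, 0.0774, with a log2 fold change of -1.02, beside 0.37 in day1CL (adjusted p = 0.807) and -0.70 in day3CL (adjusted p = 0.190). Under cold it gave -0.78 in day1C, -0.18 in day3C and -0.76 in day7C (edgeR adjusted p = 0.178, 0.904 and 0.178).

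**Figure D4:**
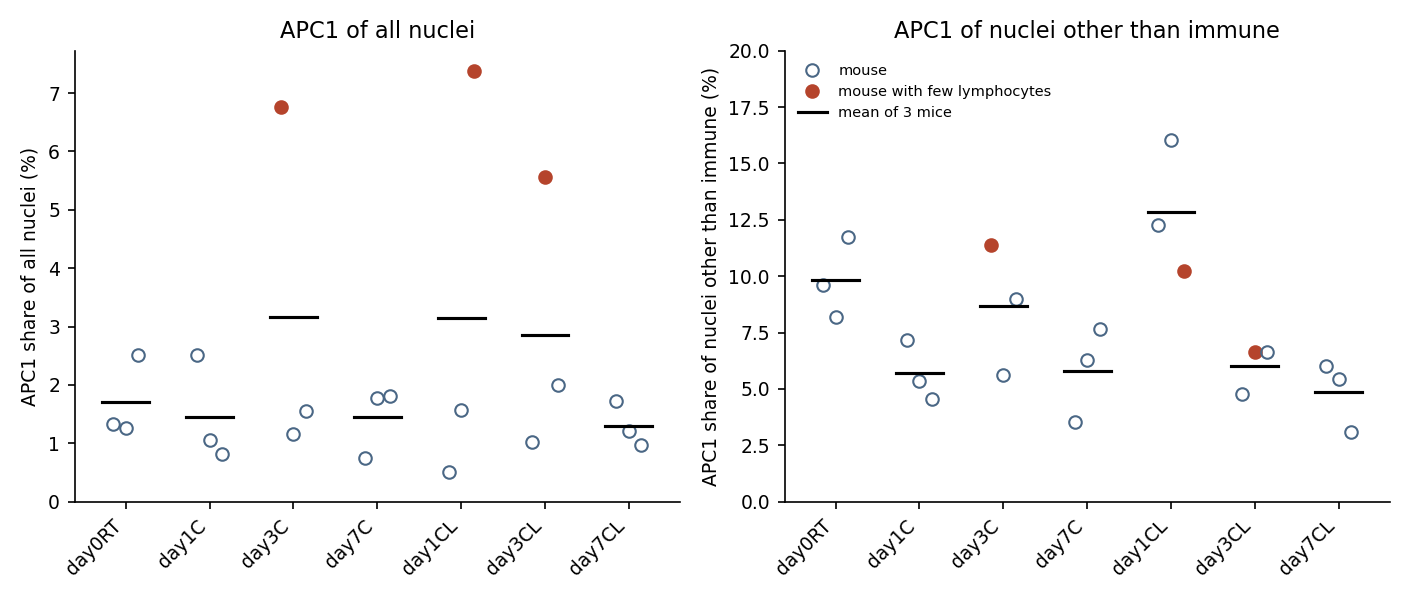
APC1 share of each mouse's nuclei, and of its nuclei other than immune cells, in percent by treatment group, with one circle per mouse, filled red for the 3 mice with few lymphocytes, and a black line at the mean of 3 mice. The red circles carry the high shares of day3C, day1CL and day3CL in the left panel.

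Within APC1, accessibility over the groups was tested on counts summed per mouse, and 1 gene, *St6gal1*, passed the threshold. Of 1452 genes that passed the filter, 1 fell and 0 rose in day3C, in day3CL and in the pooled CL mice (0.0689% and 0% of genes), at an adjusted p under 0.05 by edgeR. In day1C, day7C, day1CL, day7CL, the pooled cold mice and CL against cold, 0 genes were called (0%). Between 74 and 80 of the 1452 genes had an unadjusted edgeR p under 0.05, near the 1 in 20 that chance alone passes. The comparisons with day0RT share its 3 mice. DESeq2 called 0 genes in every comparison, and of 20 peaks tested 0 were called (0%), with 1 at an unadjusted p under 0.05 for CL against day0RT and 0 for the others.

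*St6gal1* encodes the Golgi enzyme that adds α2,6-linked sialic acid to glycoproteins, and lies at chromosome 16 with 48 peaks over its body. Its level in APC1 was 346, 526 and 636 CPM in the mice of day0RT. Under cold it was 337, 304 and 270 in day1C, 226, 230 and 247 in day3C and 164, 516 and 316 in day7C. Under CL it was 397 and 268 in day1CL, 681, 184 and 126 in day3CL and 296, 353 and 139 in day7CL. All day3C mice lay below all day0RT mice, whereas day3CL replicate 1, with 681 CPM from 6 counts, lay above them. By edgeR with Benjamini-Hochberg adjustment, the log2 fold change from day0RT was -1.19 (SE 0.27, adjusted p = 0.0181) in day3C, -1.54 (SE 0.33, adjusted p = 0.00375) in day3CL, -1.11 (SE 0.25, adjusted p = 0.00914) over all CL mice and -0.91 (SE 0.25, adjusted p = 0.304) over all cold mice. Leaving out day0RT replicate 3, which gave 57 of the 84 day0RT counts, ended each call, at log2 fold changes of -0.76, -1.11 and -0.69 (adjusted p = 0.837, 0.618 and 0.758), and so did DESeq2 (adjusted p of at least 0.995), a fit without the filter on low counts (adjusted p of at least 0.906) and the removal of the 3 mice with few lymphocytes (adjusted p of at least 0.520, edgeR). The log2 fold changes in day3C, day3CL and CL were then -1.14, -1.39 and -1.02 by DESeq2, -1.06, -1.38 and -0.97 without the filter and -1.11, -1.47 and -0.93 without the 3 mice. In day3C the call also ended with libraries of at least 20 nuclei, at -1.18 (edgeR adjusted p = 0.190). It ended too with the replicate number as a block, at -1.16 (edgeR adjusted p = 0.0759).

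*St6gal1* is also open in lymphocytes, so its peaks were examined, after the call was seen. In day0RT its pooled level was 536 CPM in APC1, 584 in B cells, 608 to 621 in T cells, 495 in macrophages, 186 in APC2 and 118 in white adipocytes. The summed level of the 10 T cell genes in APC1 had a lower mean in the treated arms too, at 506 ± 108 CPM in day0RT (n = 3), 330 ± 188 under cold (n = 9) and 271 ± 160 under CL (n = 8), while the B cell list stood at 372 ± 93.5, 409 ± 212 and 288 ± 102. The mice of the 3 arms overlapped in the T cell sum, at 389 to 603, 45 to 684 and 0 to 558 CPM. The shares that follow are over pooled nuclei, were chosen after the call and were not tested. Of the 83 day0RT nuclei, 41 came from replicate 3. Shares of detection move with depth, and the median APC1 nucleus had 1653 counts in day0RT, 1408 under cold and 1283 under CL. The peaks were picked by their day0RT counts, which alone favours lower shares in treated nuclei. These shares therefore do not show which peaks changed. Near the 3′ end of the gene, 3 intron peaks had counts in few lymphocytes. The first (chr16:23350454-23350811) was open in 8 of 83 APC1 nuclei of day0RT (9.64%) and 21 of 582 treated ones (3.61%), the second (chr16:23352818-23353251) in 7 (8.43%) and 20 (3.44%) and the third (chr16:23353640-23353845) in 8 (9.64%) and 11 (1.89%). B cells were open at these peaks in 0.0836 to 0.167% of nuclei and T cells in 0.0713 to 0.316%. At the start of the gene (chr16:23224580-23225781), where 7.48% of B cells and 9.74% of T cells were open, the shares in APC1 were 10.8% and 3.26%. The other peaks open in at least 4 day0RT nuclei were 4 intron peaks. Of these, 3 had the same day0RT share of 6.02%, and stood in treated mice at 4.12% (chr16:23291464-23291953), 1.89% (chr16:23226619-23226912) and 1.20% (chr16:23314537-23315423), while the other (chr16:23240191-23241211) went from 4.82% to 6.19%. The part of lymphocyte nuclei in the *St6gal1* result was not tested.

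The genes next in rank were not called and are given as values. Under CL the lowest p after *St6gal1* belonged to *Adam12*, a metalloprotease of mesenchymal cells (log2 0.89, SE 0.25, edgeR adjusted p = 0.237), and *Acoxl* (-1.33, SE 0.38, adjusted p = 0.237). Under cold they belonged to *Pdlim1* (-2.57, SE 0.76, edgeR adjusted p = 0.350) and *Ccdc162* (-1.11, SE 0.33, adjusted p = 0.350). The lowest adjusted p by edgeR was 0.156 in day1C (*Shb*, log2 -1.60), 0.0769 in day7C (*Pdlim1*, log2 -6.33, followed by *Cacna2d3* at 2.43 and 0.0918), 0.562 in day1CL (*Pla2g4a*, 1.36), 0.445 in day7CL (*4930523C07Rik*, -2.48) and 0.512 for CL against cold (*Txnip*, -1.23).

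No listed gene passed the test in any comparison. Of the 4 markers only *Ebf2* had counts enough to be tested, and it stood at 432 ± 102 CPM in day0RT (n = 3), 501 ± 173 under cold (n = 9) and 577 ± 127 under CL (n = 8), a log2 difference under CL of 0.46 (SE 0.23, edgeR adjusted p = 0.630). *Cd34* stood at 74.3 ± 30.8, 84.8 ± 30.2 and 113 ± 35.8 CPM and *Pdgfra* at 67.6 ± 38.2, 84.4 ± 36.4 and 91.6 ± 52.9 CPM in the same order, with overlapping mice. Of the 38 collagen and matrix genes 20 passed the filter, of which 12 had a higher estimate under CL and 12 under cold, with medians of 0.06 and 0.20 on the log2 scale beside -0.02 and -0.03 over all 1452 genes. Of the 14 interstitial progenitor genes 5 passed it, with a median of -0.51 under cold, where 2 had a higher estimate, and -0.19 under CL. *Creb5* stood at -0.51 (SE 0.19, edgeR adjusted p = 0.670) under cold. All 14 summed to 2350 ± 232 CPM in day0RT (n = 3), 1703 ± 219 under cold (n = 9) and 1937 ± 469 under CL (n = 8). Every cold mouse (1436 to 2021 CPM) lay below the day0RT mice (2200 to 2617), while the CL mice (1135 to 2580) overlapped them. These sums were not tested. Of the 16 marker lists, this was the only one whose cold mice did not overlap the day0RT mice. *Creb5* alone gave 804 of the 1899 CPM that the list summed to in pooled APC1 nuclei. The list also holds *Dpp4*, which is as open in CD8 T cells as in APC1, and the part of T cell nuclei in the sums was not tested. The 14 committed preadipocyte genes summed to 1666 ± 313 CPM in day0RT (n = 3), 1822 ± 383 under cold (n = 9) and 2042 ± 328 under CL (n = 8), with overlapping mice. Of these genes 4 passed the filter, with medians of 0.51 and 0.64 under cold and CL. They include *Pparg*, which the adipocyte list also holds, at 0.90 under cold and 1.00 under CL (edgeR adjusted p = 0.755 and 0.445). The adipocyte list summed in APC1 to 703 ± 127 CPM in day0RT (n = 3), 947 ± 185 under cold (n = 9) and 819 ± 160 under CL (n = 8), and the part of adipocyte nuclei in these values was not tested.

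CL acts through *Adrb3*, which has a higher level in adipocytes than in APC1, and the last comparison asked whether the change from day0RT differed between them. Of 12766 genes, the change under CL differed at 3, each more negative in APC1 (0.0235%), and at 0 in the other direction (0%). The change under cold differed at 0 genes in either direction (0%), with 636 at an unadjusted p under 0.05 by edgeR and 0 called by DESeq2. Those 636 are near the share of the 12766 genes that chance alone passes at that threshold. *Acoxl*, an acyl-CoA oxidase-like gene, went in APC1 from 209 ± 62.5 CPM in day0RT (n = 3) to 92.8 ± 54.1 under CL (n = 8), while adipocytes of the same mice went from 95.1 ± 0.933 to 149 ± 16.8. In each of the 3 day0RT mice *Acoxl* was higher in APC1 than in adipocytes, at 144, 216 and 268 CPM against 95, 94.2 and 96.1. The difference in log2 change was -1.94 (SE 0.41, edgeR adjusted p = 0.0142). *St6gal1* went from 503 ± 146 to 306 ± 180 CPM in APC1 and from 115 ± 18.7 to 159 ± 19.0 in adipocytes (difference -1.48, SE 0.31, edgeR adjusted p = 0.0142). *Necab3*, a neuronal calcium-binding protein gene, went from 202 ± 74.1 to 44.7 ± 40.9 CPM in APC1 and from 39.5 ± 19.7 to 51.4 ± 9.37 in adipocytes (difference -2.08, SE 0.46, edgeR adjusted p = 0.0314). The day0RT values of APC1 rest on 37 counts for *Acoxl*, 84 for *St6gal1* and 28 for *Necab3* over 3 mice, none of the 3 was called by DESeq2 (adjusted p of 0.242, 0.411 and 0.785), and without day0RT replicate 1 or without day0RT replicate 3 the count of called genes was 0. The differences by DESeq2 were -1.97 for *Acoxl*, -1.47 for *St6gal1* and -2.35 for *Necab3*, and leaving out each mouse in turn gave -2.16 to -1.55 for *Acoxl*, -1.56 to -1.16 for *St6gal1* and -2.38 to -1.87 for *Necab3*. Under cold the lowest adjusted p by edgeR were those of *Mmp27*, a matrix metalloproteinase (difference -2.25, adjusted p = 0.0728), and *Col24a1*, a fibrillar collagen (difference -2.07, adjusted p = 0.0794).

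**Figure D5:**
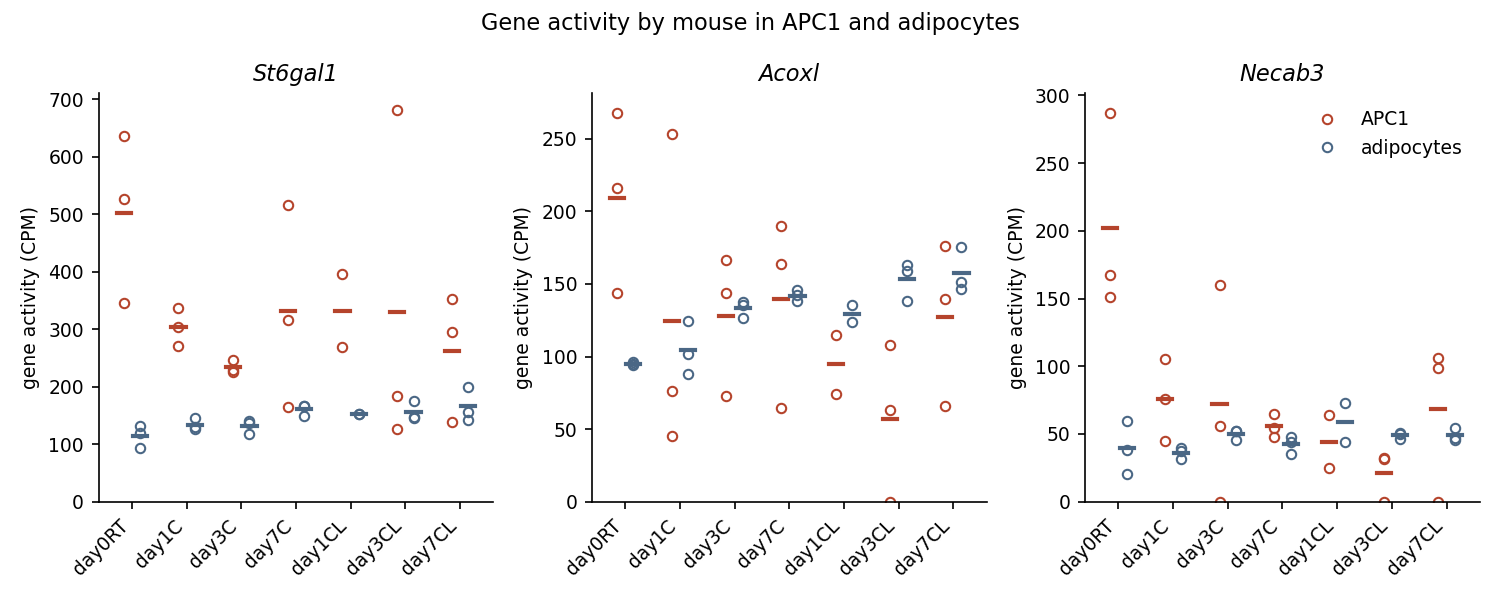
Levels of *St6gal1*, *Acoxl* and *Necab3* in CPM in APC1 and adipocytes of each mouse, over the 7 treatment groups, with one circle per mouse and a bar at the group mean. At *Acoxl* and *Necab3* the day0RT points of APC1 lie above the adipocyte points of the same mice, and the CL points of APC1 spread from 0 to 176 and from 0 to 106 CPM.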

How the data were processed

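Nuclei of whole iWAT were tagged with barcoded Tn5 and sequenced on 4 lanes that each held all mice. Per the study's methods, reads were aligned to mm10 with Bowtie2, duplicates were removed per barcode, peaks were called with MACS2 per initial cluster, and nuclei with few reads, few reads in peaks or a high doublet score were removed before deposit, so no doublet caller was run here. The submitters' processing notes also name SAMtools and Signac, with no versions used here. The deposited counts are the peaks open in each nucleus, 0 or 1, and mouse, group and cluster were taken from the deposited annotation.

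Here counts were summed per mouse and cluster (at least 10 nuclei), over peaks and over protein-coding genes of the GENCODE annotation (body plus 2000 bases upstream). Groups were compared with edgeR 4.0.16 in R 4.3.3 (filterByExpr, TMM, quasi-likelihood test, Benjamini-Hochberg adjustment over all features, threshold 0.05), all groups in 1 fit. Differences between changes in APC1 and adipocytes came from an edgeR fit with the mouse as a block. Cluster folds came from such a fit with a prior count of 2, without a test. Shares were compared by edgeR over 12 cell types and, pooled, by exact permutation tests (scipy 1.17.1). The study names 3 independent batches but does not tie a mouse's replicate number to one, so p-values measure the spread between these mice. On simulated data for CL against day0RT, 200 of 200 genes changed by 2 on the log2 scale were recovered and 136 of 200 changed by 1, with 8 false calls of 1763 genes and 12 of 1697.

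Named genes were the markers, listed genes, the 10 with the largest fold on the APC1 side and 5 on the other among genes with a mean of at least 10 counts and 1 direction in every mouse, and in treatment comparisons the called genes or the 3 lowest p. Some genes that the rule names are not reported here. The members and lists were chosen with earlier results of these data known. Alternatives were DESeq2 1.42.0, other filters, totals, library minimums and priors, promoter peaks alone, a replicate block and leaving out each mouse. The sequences come from RefSeq and the matching genome.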

Additional observations from a re-analysis of the deposited data

Results flagged for a closer look

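In groups of 4 to 10 samples, 22 sets of values were searched for a mouse far from the others, of which chance alone flags about 1 in 20, and 5 values from 4 mice stood out, all in the cold arm (n = 9). The APC1 share of day3C replicate 1 was 6.76%, with the nearest mouse at 2.51%. *Ly6a* in APC1 stood at 218 CPM in day7C replicate 1, with the nearest mouse at 79.1 CPM, and *St6gal1* at 516 CPM in day7C replicate 2, with the nearest at 337 CPM. In day1C replicate 2 the fibroblast and progenitor genes summed to 2431 CPM, below the nearest mouse at 3733 CPM, and the B cell genes to 912 CPM, above the nearest at 518 CPM, and the part of B cell nuclei in that library was not tested.

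The change under CL was more negative in APC1 than in adipocytes by a test of the difference itself at *Acoxl* (-1.94 on the log2 scale), *St6gal1* (-1.48) and *Necab3* (-2.08), with edgeR adjusted p of 0.0142, 0.0142 and 0.0314. DESeq2 called none of them, and no gene was called without day0RT replicate 1 or without day0RT replicate 3. The day0RT values of APC1 rest on 37, 84 and 28 counts.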

How the results depend on the processing

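A median APC1 library held 23 nuclei. The log2 change of the APC1 share reversed among nuclei other than immune cells in day3C (-0.18) and day3CL (-0.70), among nuclei other than B and T cells in day3CL (-0.12), and without the 3 mice with few lymphocytes, a choice made after seeing the data, in day3C (-0.32), day1CL (-0.72) and day3CL (-0.15). The pooled difference in percentage points became -0.337 for cold and -0.195 for CL without B and T cells, -3.12 and -1.94 without immune cells, and -0.271, -0.413 and, for CL against cold, -0.142 without those 3 mice. Leaving out each mouse in turn gave log2 changes of -0.86 to 0.16 in day1C, -0.32 to 1.28 in day3C, -0.43 to 0.16 in day7C, -0.71 to 1.39 in day1CL, -0.16 to 1.14 in day3CL and -0.63 to 0.014 in day7CL, and pooled differences of -0.271 to 0.725 for cold, 0.121 to 1.14 for CL and -0.201 to 1.01 for CL against cold. The causes of these changes were not tested.

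The number of genes called in APC1 was 0 in day3C, day3CL and CL under DESeq2, without a filter on low counts and without those 3 mice, 0 in day3C and 2 in day3CL and CL with at least 20 nuclei per library, 0 in day3C and day3CL and 1 in day7CL from peaks near gene starts, and 1 in day1C when only the groups compared were fitted. Leaving out each mouse gave 0 to 1 genes in day3C and CL against cold and 0 to 2 in day3CL, day7C, CL and cold. *St6gal1* kept a negative estimate throughout, from -1.34 to -0.69 under CL, with an edgeR adjusted p under 0.05 in 16 of 20 fits, lost without day0RT replicate 3, day1CL replicates 2 or 3 or day3CL replicate 3. In day3C it was lost without any mouse of day3C, day0RT replicates 2 or 3 or day1CL replicates 2 or 3, and in day3CL without day0RT replicate 3, day1CL replicate 2 or day3CL replicates 2 or 3. No pairing of mice by replicate number was seen: deviations of mice with the same number correlated at -0.057 to 0.067 and those with different numbers at -0.092 to 0.067. The libraries are sparse, with a median of 23 nuclei, so this check cannot exclude batches shared by number. With the replicate block 0 genes were called in day3C (*St6gal1* -1.16, edgeR adjusted p = 0.0759), 1 remained in day3CL and in CL, and no other call changed.

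The number of genes whose change under CL differed from adipocytes was 0 under DESeq2 and from peaks near gene starts, and 0 to 3 leaving out each mouse (0 to 1 under cold). It was 0 without day0RT replicates 1 or 3 or day3CL replicate 3. Genes at least 4-fold above adipocytes numbered 182 without a filter, 6 from peaks near gene starts and 58 without the 3 mice, and genes above immune nuclei 1430 without a filter and 112 near gene starts. Peaks numbered 338 without a filter, 2 with at least 5 and 5 with at least 20 nuclei per library, 0 without the 3 mice, and 2 to 18 leaving out each mouse. Among the marker lists, peaks near gene starts gave 2 committed preadipocyte and 0 Schwann cell genes highest in APC1, and 0 reticular genes were highest without the 3 mice. Among 5 peaks at least 8-fold higher, 80.0% held the GATA word and 0 the TEAD or ETS word. Peak fits over the groups with at least 5 nuclei per library, and for cold with only the groups compared, had too few peaks and gave no value.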

Other observations

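The early response and glucocorticoid response genes were compared with adipocytes of the same mouse. Of 13 immediate early and stress genes 8 passed the filter, and all 8 had a higher estimate in APC1, with folds between 1.23 (*Atf3*) and 1.86 (*Junb*), beside a higher estimate for 50.3% of all 7915 genes tested. Against immune nuclei 4 of 8 had a higher estimate (39.7% of all 8782 genes tested), with *Junb* at 0.921-fold, *Fosb* at 0.894-fold and *Nr4a1* at 0.754-fold. *Dusp1*, a phosphatase induced by stress and mitogens, had 130, 295 and 622 CPM as the lowest, median and highest of 20 mice in APC1 and 125, 157 and 225 CPM in adipocytes, 1.82-fold higher and higher in 19 mice. *Nr4a2* and *Nr4a3*, from the adrenergic list, were at 0.627-fold and 0.880-fold. Of the 8 glucocorticoid response genes 6 had a higher estimate than in adipocytes and 6 than in immune nuclei. *Sgk1* was at 2.28-fold, in 19 mice, *Fkbp5* at 1.21-fold, *Tsc22d3* at 0.707-fold and *Nr3c1*, the glucocorticoid receptor, at 0.369-fold. *Zbtb16* was at 1.07-fold. Against immune nuclei *Sgk1* was at 0.916-fold, *Nr3c1* at 0.547-fold and *Zbtb16* at 15.4-fold.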
